A study of Bos taurus with 34 samples.

Results

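The circulating miRNAs of healthy dairy cows were compared between a late and an early sampling after calving, day 45 against day 25 in the words of the labels. The comparison holds 10 libraries from 5 cows (animal ids 1, 2, 4, 5 and 6, each sampled at both days), out of 34 libraries from 17 cows in the series. The labels class 6 cows as healthy and 11 as having subclinical endometritis (SCE), in which the endometrium is inflamed but the cow shows no signs, and the classes rest on cytology and biopsy of that tissue. Cow 3, the other healthy animal, was left out because its deposited files for both days hold identical values, so 12 healthy libraries were deposited and 10 were usable in pairs. No treatment is named for any group, no breed or age is stated, and the endometritis cows enter below in 22 libraries from 11 cows, only to test whether a day difference differs between the groups. The labels name the tissue as blood serum and the design text as plasma, and the design text places the samplings at 21 and 44 days postpartum.

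miRNAs are short RNAs that guide Argonaute proteins to messenger RNAs and lower their translation or stability. In the cell-free part of blood they come from red and white blood cells, platelets, vessel walls and solid organs, and are protected in vesicles or protein complexes. The weeks after calving are the time in which a dairy cow's uterus involutes, ovarian cycles resume and milk yield climbs while fat reserves are used. In bulk samples of this kind, a difference in the number of cells that release a miRNA and a difference in release per cell cannot be told apart.

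Each library held between 7441148 and 28872153 counts over 800 bovine miRNA names. Levels are given as a percentage of the library's counts, or as CPM, which puts every library's counts on a common size, after scaling with TMM, which sets libraries against each other by their bulk of miRNAs and not by their totals alone. Differences are on the log2 scale, day 45 minus day 25, and come from a fit with a term for each cow. Differences within 1 cow rest on 1 library per day and have no test. The labels name the same animal at both days, so the fit sets day differences against their spread over 5 cows. It shares this spread among miRNAs, with 4 residual degrees of freedom per miRNA against a median of 74 from the pool. Its p-values, SEs and intervals thus rest mostly on the pooled spread. For miR-148a and miR-10b, SDs of 0.47 and 3.19 over the 5 within-cow differences went with SEs of 0.63 and 0.98.

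No miRNA passed the test between the days. Of 347 miRNAs tested, 0 passed an adjusted p of 0.05 (0%, edgeR's quasi-likelihood test with Benjamini-Hochberg adjustment), and the smallest adjusted p was 0.998. DESeq2 also called 0 of 704 (0%), with 10 at an unadjusted p under 0.05. In edgeR, 2 miRNAs lay under an unadjusted p of 0.05 (0.576%), where 17.35 of the 347 would be expected by chance alone. The count was 8 when the cow term was dropped. It was 0 without cow 1, 3 without cow 2, 4 without cow 4, and 8 without cow 5 or without cow 6. The log2 difference was above 0 for 187 of the 347 (53.9%), for 48.4% with DESeq2's size factors and for 65.7% with library totals alone, a scaling that moved the median of all tested miRNAs from 0.04 to 0.21.

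These 5 pairs allow only coarse limits. The median standard error was 0.74 and the median half-width of the 95% interval was 1.47 on the log2 scale. No interval lay wholly inside a 2-fold difference either way, and 189 of 347 lay inside 4-fold. Among 45 abundant miRNAs, those with a mean of at least 1000 CPM, 38 lay inside 4-fold. Because they rest mostly on the pooled spread, these intervals can be too narrow for miRNAs whose day differences varied most between cows. With 5 cows, the lack of a call is thus not a sign that differences inside these intervals are absent.

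The libraries held the blood cell miRNAs that serum or plasma carries. The red blood cell group took from 26.7% to 84.0% of counts at day 25 and from 17.5% to 74.9% at day 45, and the platelet group from 3.02% to 28.1% and from 6.31% to 21.6%. Striated muscle miRNAs took at most 0.00554%. The most abundant miRNA was miR-486, a red blood cell miRNA. It made up 81.1% of counts at day 25 and 58.1% at day 45 in cow 1, 57.0% and 73.0% in cow 2, and 24.8% and 58.4% in cow 4. In cow 5 it went from 43.2% to 34.9% and in cow 6 from 45.3% to 14.7%. Its share was thus higher at day 45 in 2 cows and lower in 3. On the TMM scale it was higher in 3 cows, cow 5 included at 0.19, and lower in cows 1 and 6, and its fitted log2 difference was -0.20 (SE 0.91, 95% interval -2.02 to 1.62). miR-191, an abundant miRNA of blood cells and platelets, was the top miRNA in only 1 library, day 25 of cow 4, at 25.2%. It then stood at 7.11% in that cow at day 45. In the other cows it was 2.68% and 5.43% (cow 1), 7.87% and 6.21% (cow 2), 5.40% and 20.3% (cow 5), and 23.2% and 13.0% (cow 6). miR-21-5p, which is induced in inflammation and in many dividing cells, took 14% of the day-25 library of cow 4 and 0.805% at day 45. Elsewhere it lay between 0.182% and 2.55%.

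**Figure D1:**
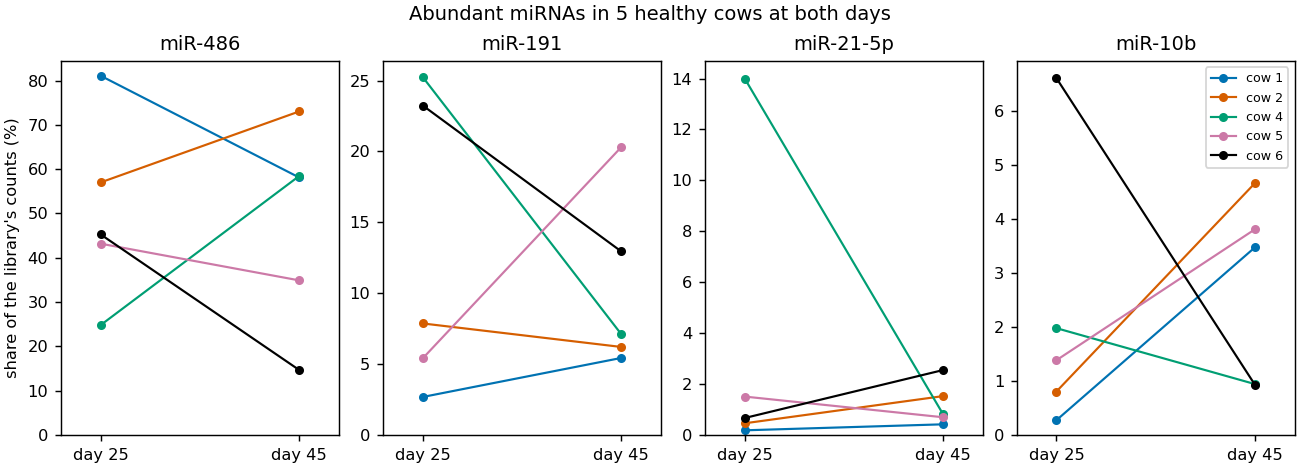
Share of each library's counts (%) taken by miR-486, miR-191, miR-21-5p and miR-10b at day 25 and day 45, with 1 line per cow. The lines cross: miR-486 is higher at day 45 in cows 2 and 4 and lower in cows 1, 5 and 6, and miR-21-5p at day 25 of cow 4 (14%) is the highest of its 10 values.

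Other abundant miRNAs also had no shared direction. miR-10b, which lies in a HOX gene cluster and is abundant in vessel walls, went from 0.274% to 3.48% in cow 1, from 0.805% to 4.66% in cow 2 and from 1.38% to 3.81% in cow 5. It went from 1.98% to 0.942% in cow 4 and from 6.61% to 0.931% in cow 6. The fitted difference was 1.06 (SE 0.98), and it was 0.25 without cow 2, 0.36 without cow 1, 0.61 without cow 5, 1.83 without cow 4 and 1.96 without cow 6. miR-192, a miRNA of liver and gut, differed by 0.31 (SE 0.77), miR-27b by 0.65 (SE 0.70), miR-142-5p, a miRNA of blood cells, by 0.59 (SE 0.70), and miR-10a by 0.38 (SE 0.88). miR-22-3p, whose counts are nearly the same as those of miR-3600, differed by 0.33 (SE 0.72). The 95% interval of each of these included 0, and the sign of miR-486, miR-191, miR-21-5p, miR-10a and miR-192 changed when 1 cow or another was left out.

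Cows differed from each other in which miRNAs were higher at day 45. On the log2 scale the median SD over the 5 cows was 1.13 at day 25 and 0.87 at day 45, and the median SD of the 5 within-cow differences was 1.42. In all, 222 of 347 miRNAs (64.0%) were at least 2-fold higher at day 45 in one cow and at least 2-fold lower in another, and 17 differed by 2-fold in no cow. The 2-fold mark was passed by 145 miRNAs in cow 1, 211 in cow 2, 226 in cow 4, 111 in cow 5 and 129 in cow 6. The correlation of day differences between cows, across 347 miRNAs, ran from -0.30 to 0.26 over the 10 pairs of cows with a median of -0.14, and miRNAs within a library are not independent. Cow 2 and cow 4 had the most 2-fold differences, and for several groups of miRNAs they lay on opposite sides. Cow 4's day-25 library held 7772481 counts and its day-45 library 20791383, and whether the depth has a part in its differences was not tested.

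Library measures were compared with an exact sign-flip permutation test, two-sided, over the 5 within-cow differences, for which the smallest possible p is 0.0625. The total was higher at day 45 in 4 of 5 cows, by 4076470 counts on average (p = 0.188). The number of miRNAs at 10 CPM or more was 183.4 ± 20.5 at day 25 and 180.4 ± 19.6 at day 45 (SD, n = 5; exact p = 0.812). The share of the 10 most abundant miRNAs differed by -1.41 percentage points and that of miR-486 by -2.44 (both exact p = 0.875). Red cell RNA in serum is often gauged by miR-451 over miR-23a, and this log2 ratio differed by 0.62 (exact p = 0.75), and that of miR-486 to miR-23a by -0.16 (exact p = 0.875). The SDs of the within-cow differences of these ratios were 2.78 and 2.62. The miR-451 ratio was higher at day 45 in 3 of 5 cows. It went from -0.35 to 4.86 in cow 4 and from 4.70 to 2.41 in cow 5. All 6 adjusted p-values were 0.875.

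The lowest p belonged to miR-195, which is known to restrain the cell cycle and is made from 1 locus with miR-497. Its CPM at day 25 was 2.32, 2.02, 0.601, 6.63 and 3.57 in cows 1, 2, 4, 5 and 6, and at day 45 it was 22.3, 3.52, 5.61, 9.11 and 11.4. It was higher at day 45 in 5 of 5 cows, though the days overlapped. The fold was 3.6 (95% interval 1.19 to 10.9; log2 1.85, SE 0.80, edgeR p = 0.024, adjusted p = 0.998). These levels rest on few reads, from 22 to 382 in cow 1, 30 to 26 in cow 2, 6 to 131 in cow 4, 266 to 320 in cow 5 and 20 to 220 in cow 6. With library totals alone as the scaling it was higher in 3 of 5 cows. miR-497 from the same locus was higher in 4 of 5 cows (log2 0.98, SE 0.70), with cow 5 the exception at 12.4 and 6.94 CPM.

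miR-197 had the other unadjusted p under 0.05. Its CPM was 105, 187, 49.3, 28.9 and 31.7 at day 25 and 17.5, 22.1, 15.8, 22.8 and 43.0 at day 45, in the same order of cows. It was lower at day 45 in 4 of 5 cows and higher in cow 6, and the days overlapped. The log2 difference was -1.46 (SE 0.65, 95% interval -2.75 to -0.17, edgeR p = 0.027, adjusted p = 0.998). Cow 1 and cow 2 stood highest at day 25. miR-328, which also had its highest values in those libraries, had 62.5, 94.8, 2.20, 7.0 and 9.81 CPM at day 25 and 6.42, 0.136, 4.80, 8.54 and 14.1 at day 45 (log2 -1.15, SE 0.89). Its difference was -0.12 without cow 2, -0.32 without cow 1 and between -1.98 and -1.85 without cow 4, 5 or 6. miR-1306 likewise was lower in cows 1 and 2 and not in the other cows (log2 -0.95, SE 0.84), with a difference of -0.16 without cow 2 and -0.37 without cow 1.

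**Figure D2:**
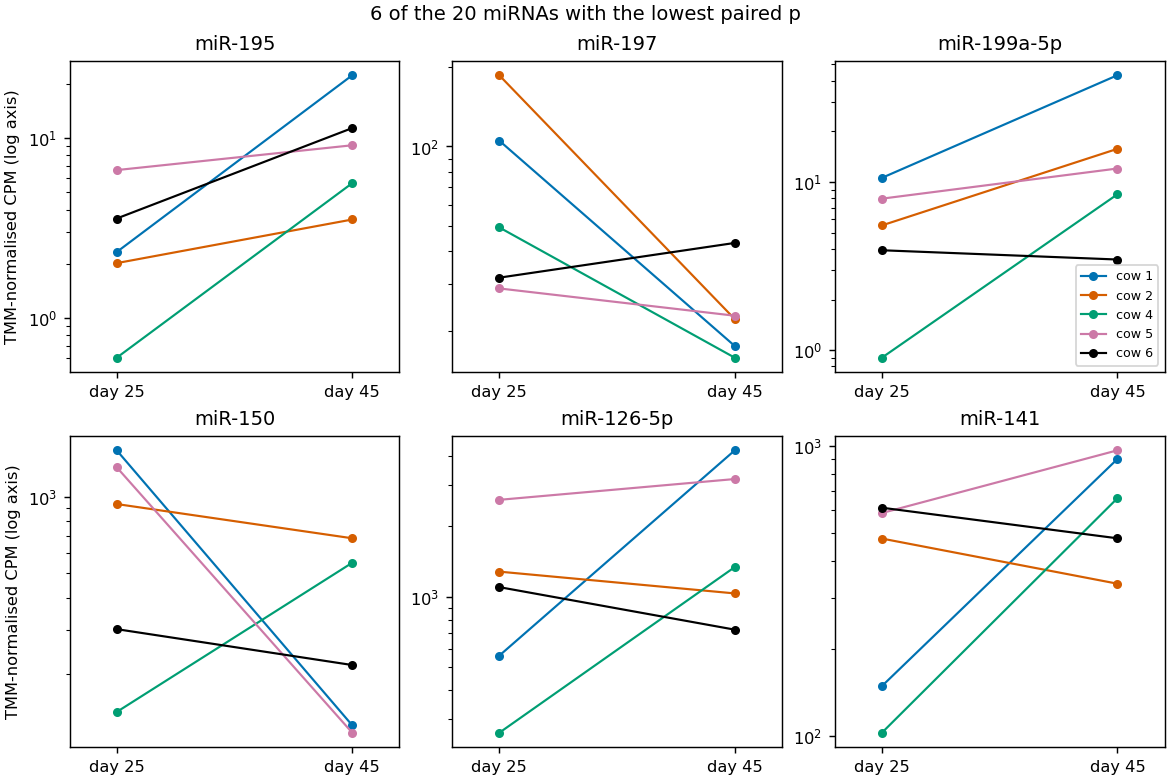
TMM-normalised CPM (log axis) at both days in each of the 5 cows for 6 of the 20 miRNAs with the lowest p. miR-195 is higher at day 45 in 5 of 5 cows and miR-197 lower in 4 of 5, and in each of the 6 panels the values of the days overlap.

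Of the other 18 miRNAs with the lowest p, none had an unadjusted p under 0.05. miR-199a-5p, a stromal and platelet miRNA, was higher in 4 of 5 cows (log2 1.41, SE 0.72), with the widest gap in cow 4, from 0.902 to 8.44 CPM. miR-150, which marks mature lymphocytes, was 1525, 937, 142, 1308 and 302 CPM at day 25 and 126, 687, 551, 118 and 218 at day 45. It was lower in 4 of 5 cows and higher in cow 4 (log2 -1.23, SE 0.75). Both arms of miR-126, the miRNA of endothelial cells and platelets encoded inside EGFL7, differed most between the days in cows 1 and 4. The 5p arm went from 560 to 4231 CPM in cow 1 and from 262 to 1341 in cow 4, and the fitted differences were 0.89 (SE 0.68) for the 5p and 1.0 (SE 0.62) for the 3p arm. miR-144, a red cell miRNA, was at 0.91 (SE 0.69) and miR-141, an epithelial miRNA, at 1.01 (SE 0.65). miR-193b was at -1.0 (SE 0.61), miR-1343-3p at -1.30 (SE 0.74), miR-760-3p at -1.03 (SE 0.69) and miR-2285aa at -1.06 (SE 0.72). miR-411a and miR-380-3p of the DLK1-DIO3 region were at 1.10 (SE 0.70) and 1.35 (SE 1.02).

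Several of these miRNAs had libraries with no count at all. miR-494, also from the DLK1-DIO3 region, had 0 counts at day 25 in cows 1, 2 and 4 and 17, 13 and 46 at day 45. Cow 5 had 67 and 51 counts and cow 6 had 7 and 9. Its fitted difference of 2.69 (SE 1.60) depends on how 0 is treated and is not a bound. miR-2898, miR-11978 and miR-296-5p, all fitted lower at -2.22, -2.34 and -1.35, had 126, 81 and 193 counts at day 25 of cow 2 and 0 at day 45 of that cow. A count of 0 allows up to 3 counts.

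**Figure D3:**
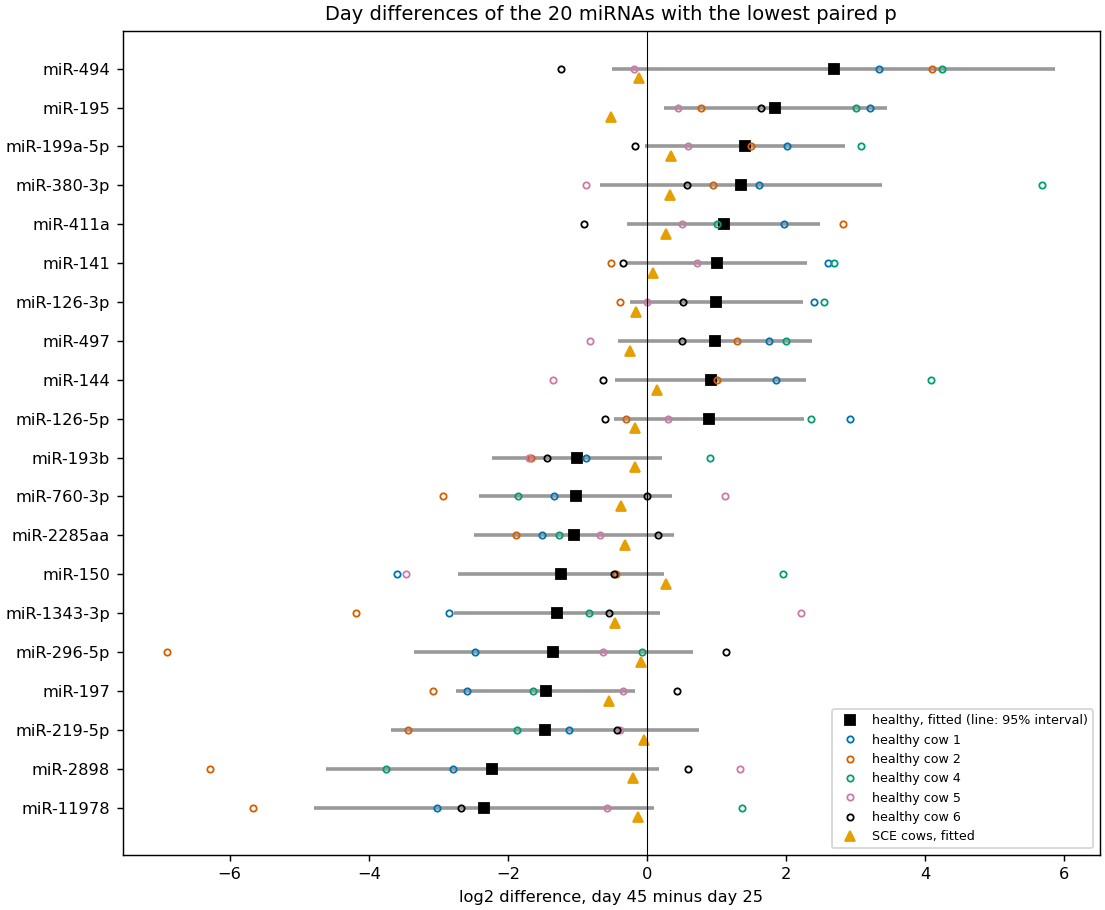
Log2 difference, day 45 minus day 25, of the 20 miRNAs with the lowest p in healthy cows: black squares are fitted values with 95% intervals as lines, open circles the 5 cows and triangles the fitted difference in endometritis cows. Only the intervals of miR-195 and miR-197 do not reach 0.

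Only 5 miRNAs lay on 1 side in all cows. The 3 higher at day 45 in all 5 cows (0.865% of those tested) were miR-195, miR-411c-5p and miR-11989. miR-411c-5p had 0, 12, 1, 14 and 1 counts at day 25 and 7, 17, 21, 15 and 7 at day 45, and miR-11989 had 4, 0, 5, 32 and 2 against 11, 1, 20, 38 and 36. The 2 lower in all 5 cows (0.576%) were miR-219-5p and miR-219b-3p, whose loci overlap and whose counts were nearly the same, so they are 1 observation. miR-219-5p, a miRNA of brain and of myelin-forming cells, ranged from 1.08 to 3.41 CPM at day 25 and from 0 to 1.03 at day 45. These are the 2 miRNAs with every day-45 library below every day-25 library (0.576%), and 0 miRNAs had every day-45 library above (0%). With library totals alone, 2 miRNAs were higher in all 5 cows and 0 lower in all, miR-411c-5p and miR-11989 were higher in 4 of 5, and miR-219-5p was lower in 4 of 5.

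Groups of miRNAs with a known source were then described, none of which had a member past the adjusted threshold. In the red blood cell group 8 of 11 tested members were above 0 (median log2 0.21), as against 53.9% of all tested miRNAs and a median of 0.04. Cow 4 stood apart, since its members had a median of 1.92, while cow 5 had -1.01 and the other cows lay between -0.21 and 0.00. miR-451, whose hairpin is cut by AGO2 and not by Dicer, was 444 CPM at day 25 and 9950 at day 45 in cow 4. It was 11689 and 10888 in cow 1, 4051 and 1919 in cow 2, 9781 and 3169 in cow 5, and 1577 and 2701 in cow 6. miR-144, its neighbour in the genome, was 24.1 and 410 CPM in cow 4 and 294 and 115 in cow 5. miR-92a, the second most abundant of the group, was at -0.47 (SE 0.65). Without cow 4, 4 of 11 members were above 0 with a median of -0.083, and without any 1 of the other cows 7 to 10 were, with medians from 0.18 to 0.53.

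White cell groups showed no common side. Of 8 neutrophil and monocyte miRNAs 5 were above 0 (median 0.20), of 10 lymphocyte miRNAs 5 (0.03) and of 9 inflammation-induced miRNAs 4 (-0.04). The lymphocyte, inflammation and liver medians changed sign with another scaling. With 1 cow left out the neutrophil and monocyte median ran from 0.015 (without cow 5) to 0.35 (cow 4), the lymphocyte median from -0.29 (cow 6) to 0.095 (cow 1) and the inflammation median from -0.27 (cow 2) to 0.16 (cow 4). miR-223, the main neutrophil miRNA, was 2188 CPM at day 25 of cow 4 and 322 at day 45, and lay between 391 and 725 in the other cows. miR-181a, a lymphocyte miRNA, was at -0.22 (SE 0.63). In the platelet group 8 of 13 were above 0 (median 0.14). With 1 cow left out 7 to 9 were, with medians from 0.25 to 0.34. Of its abundant members, miR-191 was at -0.16 (SE 0.85) and miR-151-3p at -0.24 (SE 0.67).

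The next group joined endothelial miRNAs with those of the HOX clusters and the miR-99, miR-100 and miR-125 families, which lay mostly above 0 in 4 cows and below 0 in cow 6. In the fit, 8 of 11 tested members were above 0 with a median of 0.59. The medians by cow were 1.64, 0.83, 0.40 and 0.53 in cows 1, 2, 4 and 5, and -2.17 in cow 6. miR-100 was 285, 366, 164, 408 and 899 CPM at day 25 and 1135, 1442, 301, 675 and 86.4 at day 45, so it was higher in 4 cows and lower in cow 6 (log2 0.71, SE 0.69). miR-99b, which sits in a cluster with let-7e and miR-125a, was 1516 and 120 CPM in cow 6. With 1 cow left out the median ran from 0.095 (without cow 2) through 0.33 (cow 5), 0.36 (cow 1) and 0.68 (cow 4) to 1.13 (cow 6), with 7 to 9 of 11 above 0.

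All 10 stroma and smooth muscle miRNAs were fitted above 0, with a median of 0.65, and 1 of them, miR-195, had an unadjusted p under 0.05. miR-143, the smooth muscle miRNA, was 4950, 5158, 3995, 6957 and 15251 CPM at day 25 and 30358, 35874, 5016, 6552 and 1993 at day 45 (log2 0.66, SE 0.82; 0.12 without cow 1, 0.086 without cow 2 and 1.40 without cow 6). It was higher in cows 1, 2 and 4 and lower in cows 5 and 6. miR-145, made from the same primary transcript, was far scarcer and was at 0.07 (SE 0.66). The group's medians were 1.18 in cow 1, 0.59 in cow 2, 2.07 in cow 4, -0.38 in cow 5 and 0.02 in cow 6. Without cow 4, 7 of 10 were above 0, and without any 1 of the other cows 9 or 10 were. In endometritis cows 6 of these 10 were above 0 (median 0.20). The group shares miRNAs with the platelet list, namely miR-199a-3p, miR-199a-5p and miR-199b.

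Imprinted DLK1-DIO3 miRNAs, made from a maternally expressed locus in many tissues, were scarce in serum. Of 49 listed, 15 passed the filter on low counts, and 12 of these were above 0 (median 0.87). Together they took from 0.00548% to 0.0265% of counts at day 25 and from 0.0107% to 0.0250% at day 45. miR-127, the most abundant, was 130, 80.5, 12.6, 73.8 and 73.0 CPM at day 25 and 161, 113, 75.1, 116 and 25.9 at day 45 (log2 0.50, SE 0.62). It was higher in 4 cows and lower in cow 6. Without cow 4 the group's median was 0.34, and without any 1 of the other cows it lay between 0.67 and 0.96.

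**Figure D4:**
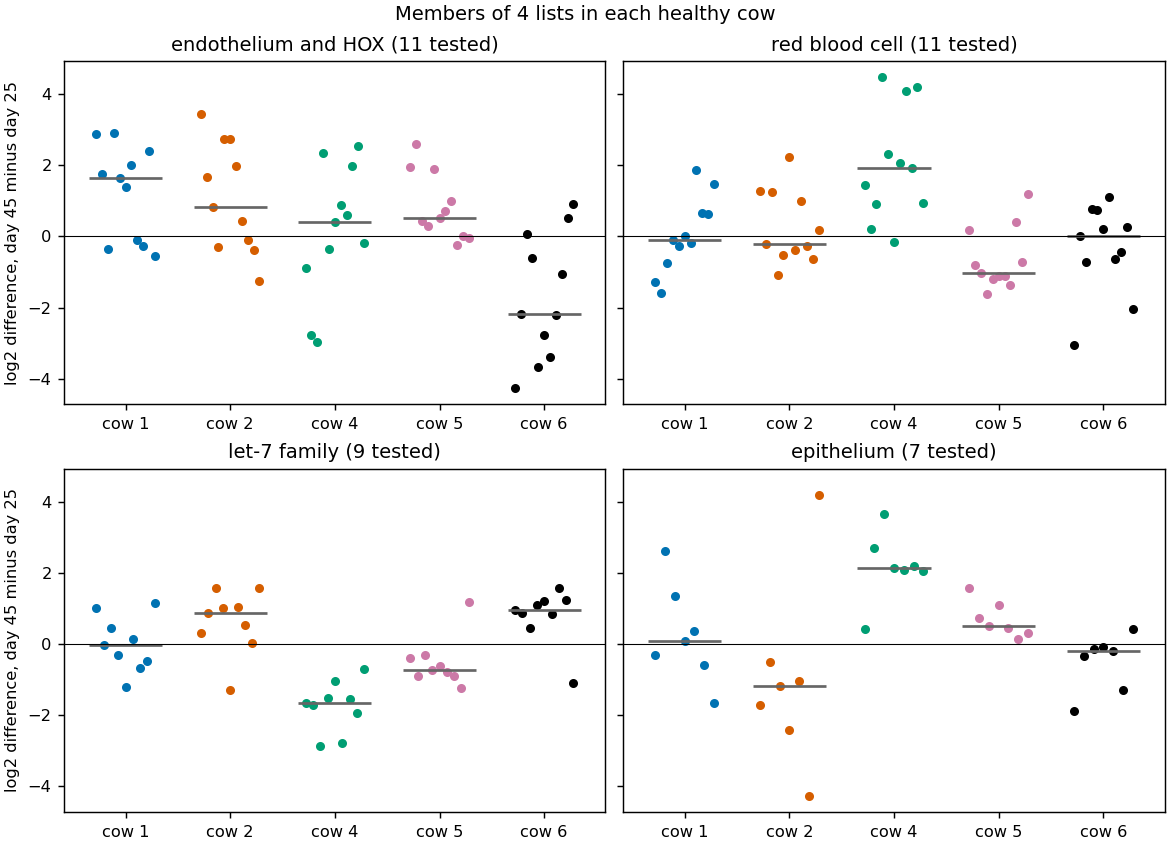
Log2 difference, day 45 minus day 25, of each tested member (points) of 4 miRNA groups in each cow, with the group median as a grey line and members ordered from the most to the least abundant. Cow 6 has the lowest median of the HOX group (-2.17), cow 4 the highest of the red blood cell group (1.92), and cow 4 and cow 6 lie on opposite sides for let-7.

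The let-7 family, which keeps cells differentiated, was fitted below 0 in 7 of 9 members (median -0.17). The side turned without cow 4, when 7 of 9 members were above 0 with a median of 0.35, and without cow 5, when 5 of 9 were with a median of 0.030. Without cow 1, 2 or 6 the median lay between -0.46 and -0.11. let-7f, its most abundant member, was 517, 1284, 7723, 2504 and 2556 CPM at day 25 and 1052, 1591, 2460, 1889 and 4974 at day 45 (log2 0.07, SE 0.65). let-7i was at -0.17 (SE 0.64). The medians by cow were -0.04, 0.86, -1.65, -0.72 and 0.96.

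Proliferation-linked miRNAs of the miR-17-92 cluster and its paralogs were 7 above and 7 below 0 (median 0.01, and -0.06 with DESeq2's size factors), and cows 2 and 4 differed most, with medians of 2.45 and -1.23. miR-19a was 16.9 CPM at day 25 and 329 at day 45 in cow 2, and 1984 and 48.7 in cow 4. In cows 1, 5 and 6 it was 25.9 and 38.9, 53.3 and 20.8, and 121 and 119. The count turned on single cows, with 4 of 14 above 0 without cow 2 (median -0.43), 9 of 13 without cow 4 (0.61) and 11 of 13 without cow 5 (0.18). With library totals alone, 12 of the 14 were above 0, as against 65.7% of all tested miRNAs. In endometritis cows 12 of the 14 were above 0 (median 0.43), as against 42.4% of all tested there.

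Epithelial miRNAs were higher in cow 4 and lower in cow 2, with medians of 2.15 and -1.19. In the fit 5 of 7 were above 0 (median 0.32), as against 3 of 7 without cow 4 (median -0.020), 3 of 6 without cow 5 (0.11) and 7 of 7 without cow 2 (0.70). miR-141 was 149, 480, 103, 587 and 613 CPM at day 25 and 902, 335, 661, 966 and 481 at day 45. miR-375, a miRNA of endocrine and gut epithelium, was at -0.40 (SE 0.65). Liver miRNAs were likewise highest in cow 4 and lowest in cow 2, at 2.12 and -1.25, with 4 of 9 above 0 (median -0.08, and from -0.21 without cow 4 to -0.017 without cow 5), and miR-122, the hepatocyte's own miRNA, was at 8.08 CPM on average and at -0.51 (SE 0.79).

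Milk and metabolic miRNAs were examined because lactation builds up over these weeks. Of 13 mammary gland and milk miRNAs 7 were above 0 (median 0.07). This count turned on single cows, with 11 of 13 above 0 without cow 4 (median 0.36), 8 of 12 without cow 5 (0.19), 3 of 12 without cow 1 (-0.11) and 5 of 13 without cow 6 (-0.12). miR-26a was at 0.09 (SE 0.66) and miR-21-5p at -0.04 (SE 0.83). Of 12 lipid and glucose metabolism miRNAs, the most abundant being miR-27b and miR-143, 10 were above 0 (median 0.47). Without cow 1 the median was 0.11 (8 of 12 above 0) and without cow 2 it was 0.20 (9 of 12), while without cow 4, 5 or 6 it lay between 0.56 and 0.63. In endometritis cows 10 of 12 were above 0 as well (median 0.19). Of the ovarian list 4 of 9 members were tested and 3 were above 0 (median 0.25; 0.14 without cow 1 and 0.44 without cow 2), with miR-378 at -0.04 (SE 0.61) and miR-224, a granulosa cell miRNA, at 0.57 (SE 0.80). Only 3 of 7 striated muscle miRNAs were tested, and they were above 0 with a median of 0.79. The median was 0.35 without cow 2 and 0.33 without cow 4, and 2 of the 3 were above 0 without cow 1 or without cow 6. The brain list had 4 tested, 2 above 0 (median -0.11, and 0.07 with library totals alone), from 0 above 0 without cow 4 to 3 without cow 2 or cow 5.

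Ruminant-specific and cattle-named miRNAs were mostly scarce, with exceptions such as miR-2419-5p and miR-2284x, at means of 422 and 285 CPM. Of 128 names in the miR-2284 and miR-2285 families 33 were tested and 11 were above 0 (median -0.24; -0.076 without cow 1 and -0.085 without cow 2). With library totals alone 15 were above 0, as against 65.7% of all tested miRNAs. In endometritis cows 12 of 33 were above 0, as against 42.4% of all miRNAs tested there. Of 30 tested cattle-numbered miRNAs 18 were above 0 (median 0.06), and of 21 recently annotated bovine miRNAs 12 (0.03). With DESeq2's size factors both of these medians were -0.01. Leaving out 1 cow moved the first from -0.26 (cow 5) to 0.34 (cow 2) and the second from -0.086 (cow 5) to 0.33 (cow 2). In endometritis cows 5 of the 30 cattle-numbered and 4 of the 21 recently annotated miRNAs were above 0.

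**Figure D5:**
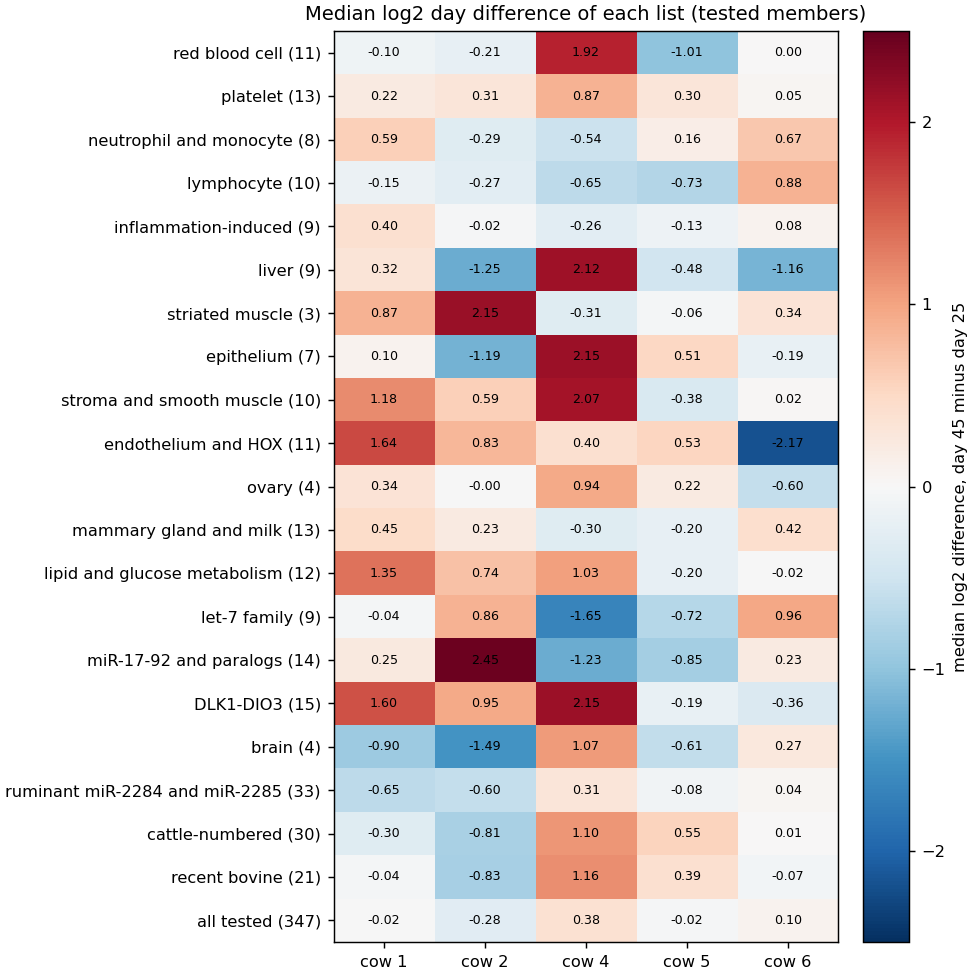
Median log2 difference, day 45 minus day 25, of the tested members (number in brackets) of each miRNA group in each of the 5 cows, as colour and number. Of the groups shown, only the platelet row keeps 1 side across the 5 cows, with medians from 0.05 in cow 6 to 0.87 in cow 4.

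The steadiest abundant miRNAs, picked after their values were seen, were miR-148a, miR-186 and miR-30e-5p. miR-148a, abundant in liver and milk, was 4310, 4740, 7527, 4505 and 6978 CPM at day 25 and 5364, 4680, 4065, 5004 and 7146 at day 45, and the SD of its within-cow differences was 0.47. miR-148d held a near-constant fraction of its counts. miR-186 had an SD of 0.52 and differed by -0.03 (SE 0.63, 95% interval -1.28 to 1.23). miR-30e-5p had an SD of 0.52, with cow 6 apart at 0.97 and the other cows between -0.27 and -0.10.

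Whether the day difference itself differed between healthy and endometritis cows was tested over 16 cows and 32 libraries. Of 408 miRNAs 0 had an adjusted p under 0.05 (0%, edgeR's quasi-likelihood test, smallest adjusted p 0.977). An unadjusted p under 0.05 was found for 6 (1.47%), a smaller share than the 0.05 expected by chance alone. Of these 6, miR-195 had the lowest p. Its difference was -0.51 (SE 0.41) in endometritis cows, where it was higher at day 45 in 3 of 11, and healthy minus endometritis was 2.38 (SE 0.74, edgeR p = 0.0034, adjusted p = 0.977). The others were miR-2483-5p (2.83, SE 1.18), miR-2465 (2.76, SE 1.32), miR-21-3p (1.28, SE 0.57), miR-27a-3p (1.18, SE 0.51) and miR-365-5p (-2.55, SE 1.18). miR-27a-3p, a miRNA that restrains fat cell differentiation, was 354, 878, 497, 1184 and 977 CPM at day 25 and 1271, 598, 1290, 1431 and 1763 at day 45 in the healthy cows. It was higher in 4 of 5, and its endometritis difference was -0.37 (SE 0.28). The unadjusted count was 28 without healthy cow 2, 25 without cow 5 and 12 without cow 6, and the adjusted count stayed at 0 in each. In endometritis cows 173 of the 408 miRNAs were above 0 (42.4%).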

How the data were processed

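Per the labels' protocols, 10 to 20 ng of small RNA entered each TruSeq Small RNA library and 13 or 16 PCR cycles followed; the cycles of each library are not stated. No molecular identifiers are named, so counts are reads after PCR. Per the submitters' processing notes, bcl2fastq 2.17.1.14, DESeq2 and genome build UMD 3.1 were used; for the aligner, counter and annotation, names were not given in the sources used here. Each deposited file holds raw counts per mature miRNA, with no normalization by the authors visible in the values. Some names share reads: let-7b and miR-3596, for example, have equal counts in every library, and miR-26a has 2.00 times the counts of miR-26c.

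Counts were tested with edgeR 4.0.16 (R 4.3.3; TMM, low counts filtered by filterByExpr, quasi-likelihood test) with a term per cow and day, and with DESeq2 1.42.0 as an alternative. Adjusted p used Benjamini-Hochberg over all tested miRNAs. Log2 CPM per cow used a prior count of 2. The pairing comes from the labels' animal ids. The deviations of a cow's 2 libraries from their day means correlated at 0.41, -0.14, -0.16, -0.04 and 0.17 in cows 1, 2, 4, 5 and 6. The fits were tested on simulated counts whose means held no differences between cows, a setting unlike these data. The rule for naming miRNAs took those with an adjusted p under 0.05, the 20 of lowest p and the 10 most abundant. It also took, of each list, the 2 most abundant tested members and those on 1 side in all cows. Some of these abundant list members, such as miR-29a and miR-215, are not described above. Grouping by seed was not done. Others named were chosen after their values were seen. The comparison, the lists and the rules were chosen with earlier results of these data known.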

Additional observations from a re-analysis of the deposited data

Results flagged for a closer look

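Of 112 sets of 5 values examined, 14 had an end value far from the other 4 by Dixon's 95% critical value. Chance passes it in about 1 of 20 sets if the values are independent and normally distributed. The flagged sets are of CPM without logs, in which high values stand further apart, and sets from 1 library are not independent. The count of 14 can therefore not be set against that rate. At day 25, cow 4 held 3 of them: miR-21-5p at 108993 CPM (others 3572 to 8839), let-7f at 7723 (others 517 to 2556) and let-7i at 4800 (others 973 to 1578). Cow 6 stood apart at day 25 for miR-10b at 87746 CPM (others 5371 to 15407) and miR-143 at 15251 (others 3995 to 6957), and cow 2 for miR-375 at 2335 (others 318 to 840).

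At day 45, cow 6 stood apart for miR-26a at 14803 CPM (others 1892 to 4796), miR-30e-5p at 10804 (others 4313 to 6154), miR-197 at 43.0 (others 15.8 to 22.8) and miR-2898 at 6.76 (others 0 to 1.37). miR-145 in cow 1 was at 40.3 CPM (others 8.27 to 16.7) and miR-411c-5p in cow 2 at 2.30 (others 0.361 to 0.900). miR-219-5p and miR-219b-3p, which have nearly equal counts, were at 0 CPM in cow 2 (others 0.818 to 1.03).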

How the results depend on the processing

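Under the alternatives tried (no replicate block, no replicate block with cow 3 added at day 45, DESeq2, other scalings and filters, a miR-486 to miR-23a covariate, miR-486 left out, and each cow left out), the count of miRNAs past an adjusted p of 0.05 was 0 in each. The 23 miRNAs of lowest p or on 1 side in all cows kept their direction in each alternative that tested them. They were picked from these same libraries for a large or shared difference, so this outcome was likely beforehand and is not separate support. The count at an unadjusted p under 0.05, which was 2, was 8 with no replicate block, 10 with cow 3 added and no replicate block, 10 in DESeq2, 1 with library totals alone and 4 with the covariate, and from 0 to 8 with a cow left out. For the healthy against endometritis difference it was 6, and 14 with no replicate block, 3 with a mean of at least 10 CPM, 19 in DESeq2, and 5 to 28 with a healthy cow left out. The number of miRNAs detected differed by -3 at 10 CPM and by 7.6 at 1 CPM. With a cow left out, it differed by -12.25 to 5, the top-10 share by -3.72 to 3.21 points, the miR-486 share by -11.5 to 4.60 points, log2 miR-451 to miR-23a by -0.52 to 1.35 and log2 miR-486 to miR-23a by -0.88 to 0.67.

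Of 680 refits of single named miRNAs, 49 had the opposite sign. The 95% intervals of the miRNAs concerned included 0, as did all those of the named miRNAs except miR-195 and miR-197. With a cow left out the log2 difference ran from -0.61 to 0.42 for miR-486, -0.78 to 0.37 for miR-191, -0.66 to 0.76 for miR-21-5p, -0.38 to 1.25 for miR-10a, -0.074 to 0.77 for miR-192, -0.58 to 0.23 for miR-151-3p, -0.19 to 0.56 for let-7f, -0.46 to 0.29 for let-7i, -0.30 to 0.34 for miR-145, -0.28 to 0.43 for miR-26a, -0.88 to 0.0085 for miR-375, -0.28 to 0.25 for miR-378, -0.14 to 0.20 for miR-148a, -0.18 to 0.20 for miR-186 and -0.21 to 0.19 for miR-30e-5p. With no replicate block it was -0.38 for miR-10a, -0.29 for let-7f, 0.062 for miR-378 and 0.044 for miR-186, and with no replicate block and cow 3 added at day 45 it was -0.030 for miR-224, -0.21 for let-7f, 0.12 for miR-378, -0.031 for miR-145 and 0.050 for miR-148a. With library totals alone it was 0.22 for miR-21-5p, 0.099 for miR-378, 0.029 for miR-148a and 0.094 for miR-186. With a mean of at least 10 CPM it was -0.012 for let-7f, -0.013 for miR-145 and -0.041 for miR-30e-5p. miR-378 was at 0.017 with the covariate and 0.0026 without miR-486, miR-186 at 0.010 unfiltered and 0.024 without miR-486, and miR-30e-5p at -0.023 in DESeq2 and -0.017 with its size factors. The cause was not tested. Depth limits the scarce miRNAs, some of which had 0 counts in 1 or more libraries, and intervals cover no PCR bias.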
